A study of Mus musculus with 8 samples.

Results

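The genes described here encode membrane carriers of metals, nucleosides and vitamins, taken from 12 solute carrier families. They were all the genes whose symbol, in the annotation of the array platform, begins with Slc11a, Slc19a, Slc23a, Slc28a, Slc29a, Slc30a, Slc31a, Slc39a, Slc40a, Slc41a, Slc46a or Slc48a. This gave 48 genes of 18193 in all, read by 87 probe sets that name a single gene, and each gene was represented by its probe set with the highest mean log2 intensity over all 8 arrays. Another probe set, which names Slc28a2 together with a related gene, was left out. The arrays measured RNA from mouse bone marrow cells sorted as granulocyte-macrophage progenitors (GMPs), in 4 samples from normal mice (GMP, genotype given as Normal) and 4 from leukaemic mice (L-GMP, genotype given as HoxA9+Meis1 AML, an acute myeloid leukaemia). The labels used here give no strain, age or sex and no vector or promoter for the HoxA9 and Meis1 label, and they do not say whether each array holds RNA of its own animal or leukaemia. The p-values thus reflect the spread among these arrays alone, and that spread may be technical. Arrays are named by group and replicate letter.

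Cells cannot make metals or most vitamins, so each must cross a membrane through a carrier. The SLC39 (ZIP) proteins bring zinc and related metals into the cytosol, while the SLC30 (ZnT) proteins move zinc out of it, across the plasma membrane or into vesicles. Ferroportin, the product of Slc40a1, is the known cellular exporter of iron, and SLC11 proteins take up iron and manganese. SLC31 proteins handle copper, SLC41 magnesium, SLC28 and SLC29 nucleosides, SLC19 folate and thiamine, SLC23 ascorbate, SLC46A1 folate, and SLC48A1 haem. In bone marrow such carriers are best known from macrophages that recycle iron from red cells, from erythroid cells that use it, and from the uptake of nucleoside and antifolate drugs by leukaemic cells.

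The upstream sequences of the genes with the largest fall and rise that the RefSeq promoter table holds, and of Slc41a1 and Slc29a3 as a further gene of each direction, are shown to let the members that moved be set beside motifs of metal response and of the labelled factors. Each is the 250 bases before a RefSeq start site (GRCm38.p6), 5′ to 3′ on the strand of the gene. Capitals mark letters that match any of the motifs searched on both strands: the metal response element core as TGCACNC or TGCGCNC, the E-box CACGTG, the antioxidant response element core TGACNNNGC, the HOX with PBX sequence TGATTNAT and the MEIS sequence TGACAG. No 2 matches overlap in the sequences shown.
Slc30a4, chr2:122702664-122702913, minus strand: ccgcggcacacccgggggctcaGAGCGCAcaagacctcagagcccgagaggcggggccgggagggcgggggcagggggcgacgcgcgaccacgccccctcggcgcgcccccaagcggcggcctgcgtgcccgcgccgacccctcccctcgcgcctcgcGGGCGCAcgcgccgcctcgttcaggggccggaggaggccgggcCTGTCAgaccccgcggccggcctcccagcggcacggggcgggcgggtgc
Slc41a1, chr1:131827762-131828011, plus strand: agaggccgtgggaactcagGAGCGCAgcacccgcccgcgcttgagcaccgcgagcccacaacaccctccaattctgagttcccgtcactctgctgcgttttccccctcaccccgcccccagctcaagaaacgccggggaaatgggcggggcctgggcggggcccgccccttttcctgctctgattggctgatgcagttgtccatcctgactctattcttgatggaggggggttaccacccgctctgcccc
Slc31a2, chr4:62286179-62286428, plus strand: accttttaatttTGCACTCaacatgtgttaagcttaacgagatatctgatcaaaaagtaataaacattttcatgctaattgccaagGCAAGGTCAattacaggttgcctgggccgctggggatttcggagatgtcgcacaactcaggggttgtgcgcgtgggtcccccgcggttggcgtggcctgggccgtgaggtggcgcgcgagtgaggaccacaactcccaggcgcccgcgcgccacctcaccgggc
Slc29a3, chr10:60752783-60753032, minus strand: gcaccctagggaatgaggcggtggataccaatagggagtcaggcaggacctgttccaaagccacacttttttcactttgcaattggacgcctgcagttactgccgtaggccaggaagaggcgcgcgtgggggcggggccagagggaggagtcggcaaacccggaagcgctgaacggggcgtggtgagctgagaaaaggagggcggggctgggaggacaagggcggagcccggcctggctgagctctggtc

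The Slc30a4 window held the G form of the metal response core with first bases 228 and 92 bases before the start, and a MEIS sequence at 49. Slc41a1 held the G form at 231, and Slc31a2 held the A form at 238 and the antioxidant core at 164, while the Slc29a3 window held none of the 6 motifs. Windows were used for 40 of the 48 genes (54 windows, some genes having several starts). Any window of these genes on 1 chromosome was left out, while the set of all windows was not cut in this way. The A form lay in 12 of the 54 windows (22.2%) and in 10.4% of all 32851 windows of that length, and the G form in 9 (16.7%) and 12.5%. The E-box lay in 4 (7.41%) and 6.02%, and the antioxidant core in 13 (24.1%) and 10.2%. The MEIS sequence lay in 17 (31.5%) and 15.9%. The HOX with PBX sequence lay in 0 of 54 and in 2.82% of all windows. Among the 9 windows of called genes, the A form, the G form and the MEIS sequence each lay in 3. The antioxidant core lay in 2 of these, the E-box in 1 and the HOX with PBX sequence in 0. The windows of Slc39a8, which fell more than Slc41a1, and of Slc39a11 and Slc30a6 are not shown. A match is a description of the letters and not a binding site.

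Genes for the iron exporter, a vesicular zinc transporter and a magnesium exporter were lower in L-GMPs, and a copper transporter and a lysosomal nucleoside transporter were higher. The call of the magnesium exporter was lost in the mean of its probe sets (limma adjusted p = 0.058). That of the nucleoside transporter was lost when most single arrays were left out. Of the 48 genes, 7 fell (Slc40a1, Slc30a4, Slc39a8, Slc41a1, Slc48a1, Slc39a11 and Slc30a6) and 2 rose (Slc31a2 and Slc29a3) in limma's moderated test with Benjamini-Hochberg adjustment over all 18193 genes at 0.05. Over all genes, 7.27% fell and 4.78% rose, against 14.6% and 4.17% of the 48. The share that rose was thus near the background, and the share that fell was above it. That excess was not tested, since the genes were chosen with earlier results known. The median change was -0.03 on the log2 scale over the 48 genes and 0.01 over all genes, and 41 of the 48 changed by less than 0.5 on that scale in either direction. The groups did not overlap in 10 genes with L-GMP below and 2 with L-GMP above, where the background over all genes was 9.71% and 8.53%. Of the 48 genes, 29 had a mean above the median of every array, and 2 of these rose (6.9%) and 6 fell (20.7%). Over all 10095 genes with such a mean, 7.26% rose and 9.02% fell. Slc19a3, Slc23a4, Slc28a3, Slc30a10 and Slc39a2 had both group means under the lower quartile of every array. Among the 87 probe sets, tested on their own, 6 rose and 11 fell, and in 0 genes did 2 called probe sets differ in sign. In bulk RNA of sorted cells, fewer cells of a type and less RNA per cell cannot be told apart.

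**Figure D1:**
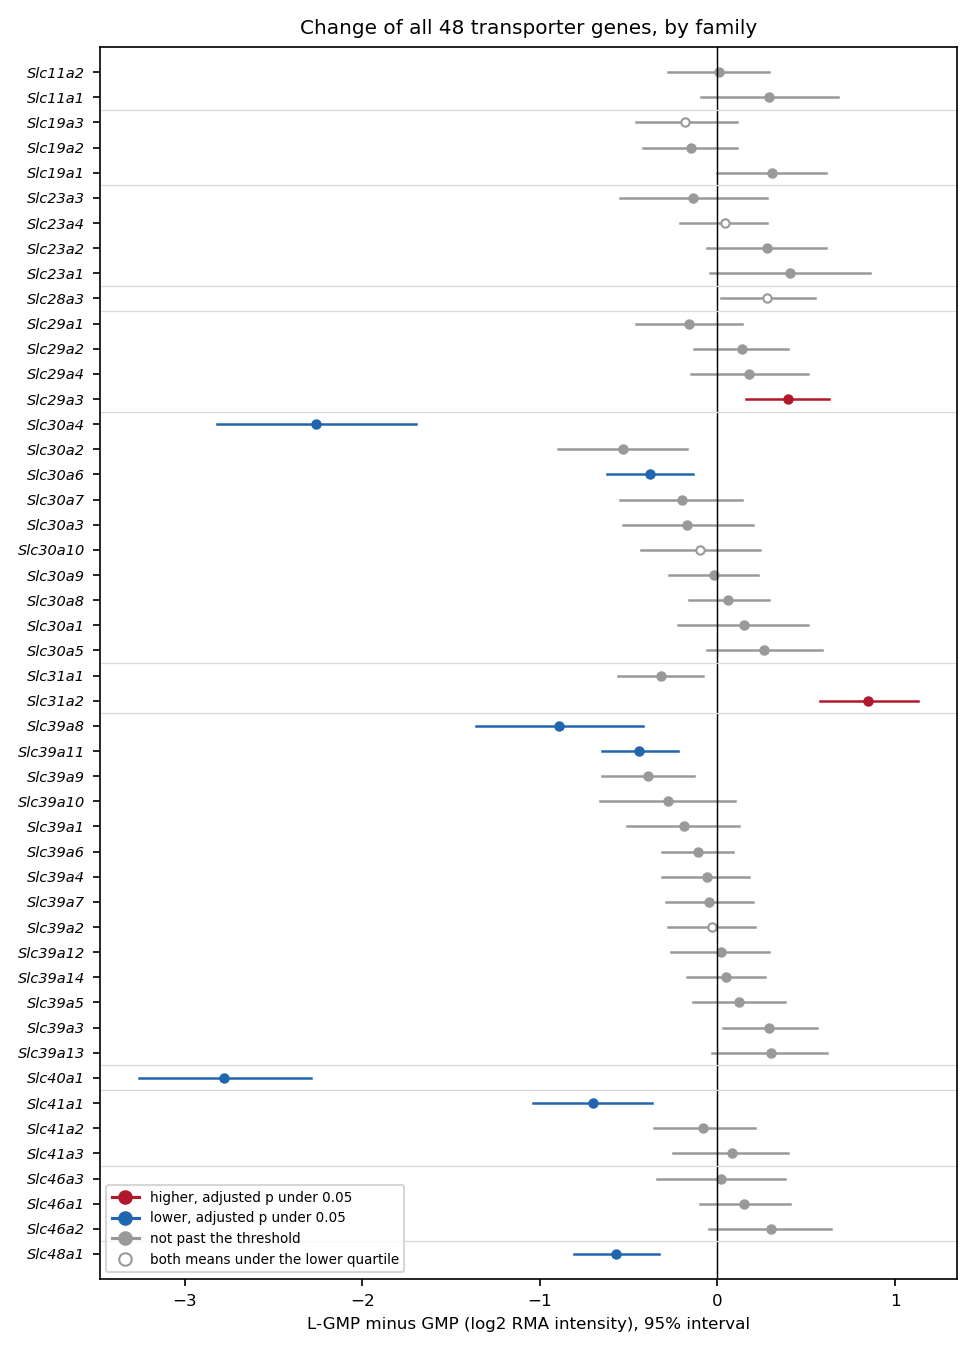
Change of each of the 48 genes, L-GMP minus GMP in log2 RMA intensity (horizontal axis), grouped by family (vertical axis), with points for the fitted change and bars for its 95% interval (n = 4 arrays per group). Slc40a1 (-2.78) and Slc30a4 (-2.26) lie far to the left, Slc31a2 (0.85) lies farthest to the right, and most genes lie within 0.5 of 0.

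The arrays as a whole set limits on small changes. All 10 GMP marker genes listed, among them Mpo and Elane, had means above the median of every array in both groups. Hoxa9 rose by 4.82 in its probe set with the higher mean and had a change of -6.66 in the other, and Meis1 had changes of -3.05 to -1.47 in its 3 probe sets, so these genes do not settle the labels. Correlations between arrays over single-gene probe sets ran from 0.983 to 0.994 for pairs of one group and from 0.966 to 0.973 across groups. The 3′ signal of Gapdh exceeded its 5′ signal by 2.74 on the log2 scale in GMP replicate D and by 1.24 to 1.76 on the remaining arrays. With each array centred on its own median, the median change over all genes became 0.15 in place of 0.01, and small changes are to be read against that shift.

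Slc40a1 encodes ferroportin, the iron exporter. Its log2 intensity in GMP replicates A to D was 7.32, 7.55, 6.90 and 7.81, and in L-GMP replicates A to D it was 5.10, 4.73, 4.26 and 4.39. Every L-GMP array lay below every GMP array, with a gap of 1.80 between the groups. Slc40a1 fell by 2.78 (SE 0.22, 6.85-fold, limma adjusted p = 1.73e-05), from 7.40 ± 0.38 to 4.62 ± 0.38 (SD, n = 4). Its other probe set had a change of -3.00 (SE 0.26, limma adjusted p = 3.72e-05 over all probe sets), with an L-GMP mean of 3.73 that lies close to the lower quartile of the arrays (3.65 to 3.75). The change of Slc40a1 was -2.94 to -2.64 over the 17 alternatives run, all past the threshold.

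Slc48a1 encodes HRG1, which carries haem out of the phagolysosome and endosome. GMP replicates A to D read 8.61, 8.76, 8.56 and 8.68, and L-GMP replicates A to D read 8.0, 7.94, 8.10 and 8.30. The groups were apart by 0.27. Slc48a1 fell by 0.57 (SE 0.11, 1.49-fold, limma adjusted p = 0.00645). Its other probe set had a change of -0.33 (limma adjusted p = 0.308) with overlapping groups, and in the mean of the 2 probe sets the gene had an adjusted p of 0.0503. The SLC11 genes did not pass the test. Slc11a2, the iron importer DMT1, had a change of 0.01 (95% interval -0.28 to 0.29), and its 4 probe sets had changes of -0.39 to 0.28. Slc11a1, the phagosomal NRAMP1 of macrophages, had a change of 0.29 (95% interval -0.09 to 0.68), with GMP values of 3.97 to 4.66 and L-GMP values of 4.22 to 4.87.

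Genes that handle iron and haem beyond the carriers were read from lists chosen with earlier results of these data known. Of 27 measured genes of iron uptake, storage and regulation, 2 fell and 0 rose. The share that fell, 7.41%, was near that of all genes (7.27%), of which 4.78% rose. Tfr2, the second transferrin receptor, fell by 2.44 (SE 0.13, limma adjusted p = 7.42e-07), from 7.55 ± 0.18 to 5.11 ± 0.19 (SD, n = 4). Nfs1, the cysteine desulfurase of iron-sulfur cluster assembly, fell by 0.64. It missed the threshold when GMP array B or D or L-GMP array A, B or C was left out (limma adjusted p 0.0874 to 0.115), and after centring. In the mean of its probe sets Nfs1 had a change of -0.17 (limma adjusted p = 0.27). Tfrc, the main transferrin receptor, had a change of -0.39 (limma adjusted p = 0.0676), and Fth1, ferritin heavy chain, of 0.07, both chosen after their values were seen. Of 13 genes of haem export and breakdown, 4 rose (30.8%) and 2 fell (15.4%), against 4.78% and 7.27% of all genes. Abcg2, an exporter of porphyrins and drugs, fell by 3.37 (SE 0.15). Cd163, the haemoglobin-haptoglobin receptor, rose by 1.54, and Lrp1, a receptor for haemopexin, rose by 1.05. The Cd163 call was lost without GMP replicate D (limma adjusted p = 0.0535), and the Lrp1 call without GMP replicate B or C (0.0544 to 0.0549). The other calls of that list, chosen after their values were seen, were Abcb6, which rose by 0.84, Hmox1, the inducible haem oxygenase, which rose by 0.45, and Hmox2, which fell by 0.36. The calls of Hmox1 and Hmox2 held when L-GMP replicate B was left out, and each was lost when any other array was (limma adjusted p 0.055 to 0.113). After centring Hmox2 had a change of -0.22 (0.167).

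Markers of other cell types also differed between the groups. The counts below are to be read against all genes, of which 4.78% rose and 7.27% fell. Of 17 measured monocyte and macrophage markers, 8 rose and 1 fell, and their summed intensity was 12129 to 16224 in L-GMPs and 6614 to 7422 in GMPs. Among them Cd68 and Mpeg1 rose by 2.48 and 1.93, and F13a1 had the highest mean and rose by 1.57. Vcam1, a marker of iron-recycling macrophages, fell by 1.66, while Adgre1 and Cd163 rose by 1.56 and 1.54. Vcam1, Adgre1 and Cd163 were chosen after their values were seen, and the groups overlapped in Adgre1. Spic, the transcription factor of iron-recycling macrophages, and C1qa and C1qb had means under the lower quartile of every array in both groups. Of 12 erythroid markers 3 fell and 0 rose, Tfr2, Car1 and Gata1, with summed intensity of 295 to 343 in L-GMPs and 499 to 738 in GMPs, and Rhag under the lower quartile in both. Car1 fell by 1.80, a call lost without any L-GMP array or without GMP replicate C or D (limma adjusted p 0.0528 to 0.0885), and under a trended robust prior (0.0988). Of 12 eosinophil, basophil and mast cell markers 9 fell and 0 rose, with sums of 746 to 1617 in L-GMPs and 4585 to 11147 in GMPs, and of 10 megakaryocyte markers 4 fell and 0 rose, with sums of 266 to 354 and 556 to 2109. Prg2 and Ms4a2 fell by 5.20 and 4.95, and Pf4 and Vwf by 5.10 and 1.80. Mcpt8 had the highest mean of the eosinophil, basophil and mast cell list. It had a change of -0.46 (limma adjusted p = 0.253), with overlapping groups. Itga2b had the highest mean of the megakaryocyte list and fell by 1.68. Among 10 GMP markers 5 fell and 0 rose, with falls of 0.39 in Mpo, 1.75 in Elane and 1.16 in Csf3r. The sums of the GMP markers were 26430 to 31876 in L-GMPs and 40004 to 44150 in GMPs. The Mpo call was lost when GMP array B or C or L-GMP array A was left out (limma adjusted p 0.0516 to 0.0592), and after centring, where the change was -0.25. The Elane call was lost under a trended robust prior (0.053) and with both GMP array D and L-GMP array B left out (0.0532). The late neutrophil list had 1 rise and 2 falls among 10, the stroma list 1 rise among 10, and by limma neither the B cell list nor the T and NK cell list had any call among 9 each (1 and 0 at an unadjusted p under 0.05). In the late neutrophil list Cd177 rose by 4.28 and S100a8 fell by 3.82, and in the stroma list Pecam1 rose by 0.75. S100a9, with the highest mean of the late neutrophil list, had a change of -2.7 (limma adjusted p = 0.0695), with overlapping groups. It passed without L-GMP replicate A or GMP replicate C (limma adjusted p 0.0218 to 0.0401). The highest means of the B cell list and the T and NK cell list were those of Cd79b and Zap70, with changes of -0.40 and 0.25. The part of these cell markers in the changes of Slc40a1, Slc48a1, Slc30a4 and the other carriers was not tested.

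**Figure D2:**
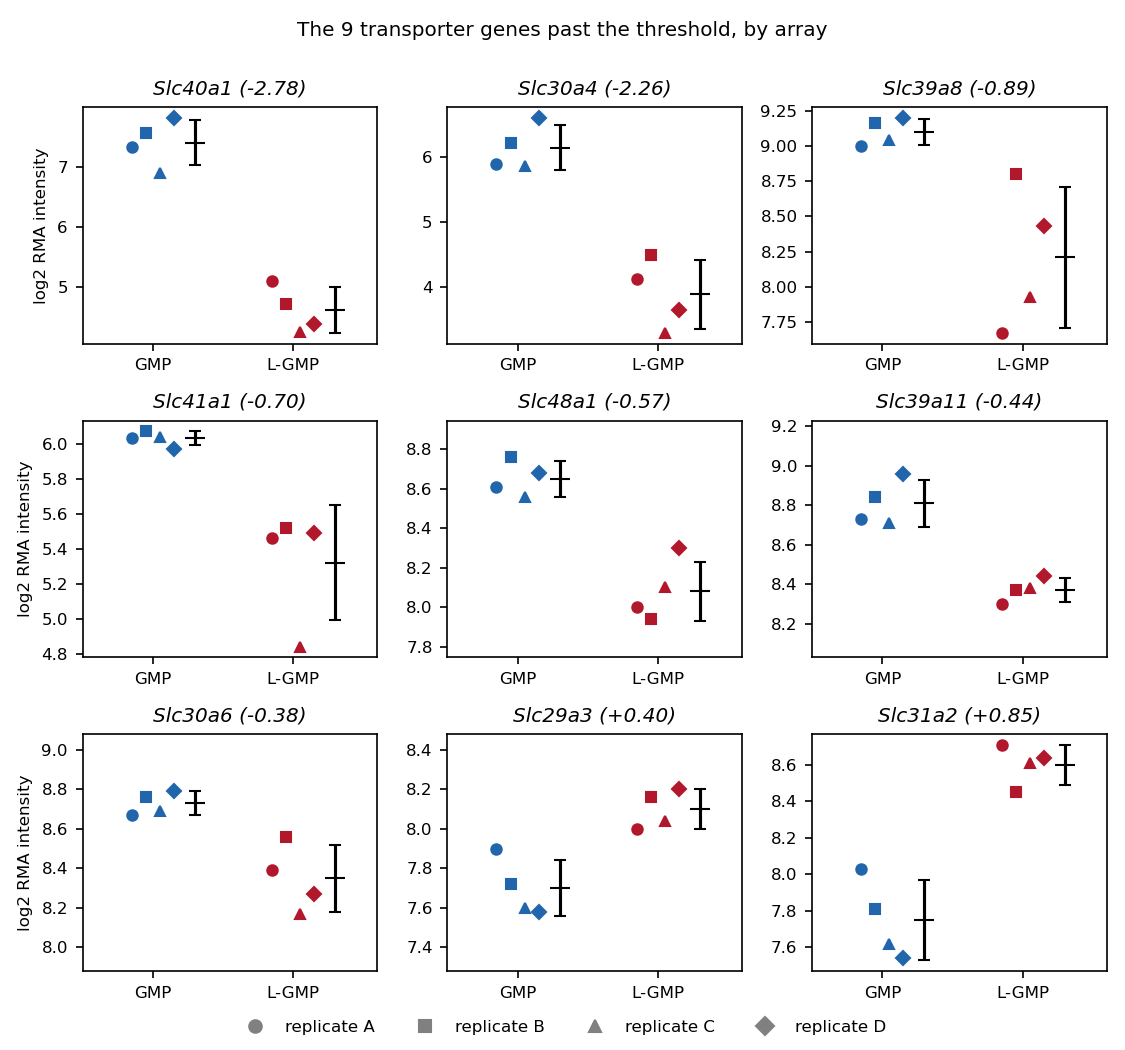
Log2 RMA intensity (vertical axis, its own scale in each panel) of the 9 genes past the threshold on each of the 4 GMP and 4 L-GMP arrays, with the marker shape giving the replicate letter, the bar the mean ± SD, and the number in the title the change. The groups do not overlap in any panel, and L-GMP replicate C lies apart from its group in Slc41a1 (4.84 against 5.46 to 5.52).

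Among the zinc exporters of the SLC30 family, 2 of 10 fell (20.0%, against 7.27% of all genes) and 0 rose. Slc30a4 encodes ZnT4, which loads zinc into endosomal and secretory vesicles and whose loss in the mouse strain called lethal milk leaves milk short of zinc. GMP replicates A to D gave 5.89, 6.22, 5.86 and 6.61, and L-GMP replicates A to D gave 4.12, 4.49, 3.29 and 3.65. L-GMP replicates C and D lie at or under the lower quartile of the arrays, and all L-GMP values lie at least 1.37 under the lowest GMP value. Slc30a4 fell by 2.26 (SE 0.25, 4.79-fold, limma adjusted p = 0.000227), from 6.15 ± 0.35 to 3.89 ± 0.53 (SD, n = 4), and stayed past the threshold in each of the 16 alternatives that tested it. A size that ends near the floor is uncertain, and 1 probe set reads this gene.

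Slc30a6 encodes ZnT6, a partner of ZnT5 in the early secretory pathway. It read 8.67, 8.76, 8.69 and 8.79 in GMP replicates A to D and 8.39, 8.56, 8.17 and 8.27 in L-GMP replicates A to D. It fell by 0.38 (SE 0.11, 1.30-fold, limma adjusted p = 0.0435). Leaving out L-GMP replicate B kept this call, and leaving out any other array ended it (limma adjusted p 0.0516 to 0.111), as did centring, where the change was -0.24. Slc30a5, which encodes that partner ZnT5, had a change of 0.26 (95% interval -0.06 to 0.59). Slc30a2, a vesicular zinc transporter, lay lower on all L-GMP arrays (3.38 to 3.55) than on any GMP array (3.75 to 4.55) but missed the threshold, with a change of -0.53 (limma adjusted p = 0.0606), and its L-GMP mean of 3.47 is under the lower quartile. Without GMP replicate A it passed (limma adjusted p = 0.0438). Slc30a1, the zinc exporter of the plasma membrane, had a change of 0.15 (95% interval -0.22 to 0.51) in the chosen probe set. A second probe set of Slc30a1, picked with its values known, showed a rise of 0.54 (SE 0.12, limma adjusted p = 0.015 over all probe sets), with GMP values of 6.51 to 6.69 and L-GMP values of 6.97 to 7.43. The remaining SLC30 genes had changes of -0.20 to 0.06, none past the threshold.

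Of the 14 zinc importer genes of the SLC39 family, 2 fell (14.3%, against 7.27% of all genes) and 0 rose. Slc39a8 encodes ZIP8, an importer of zinc, manganese and iron at the plasma membrane and lysosome. GMP replicates A to D read 9.0, 9.16, 9.04 and 9.20, within 0.20 of each other. L-GMP replicates A to D read 7.67, 8.80, 7.93 and 8.43 and were spread over 1.13, with replicate B close to the GMP arrays. Slc39a8 fell by 0.89 (SE 0.21, 1.86-fold, limma adjusted p = 0.021), and without GMP array B, C or D or L-GMP array C its adjusted p was 0.0523 to 0.0636. The dimmer Slc39a8 probe set had a change of -1.23 (SE 0.20, limma adjusted p = 0.00265 over all probe sets), with L-GMP values of 3.71 to 4.49 against GMP values of 4.89 to 5.60.

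Slc39a11 encodes ZIP11, a zinc transporter of internal membranes. It read 8.73, 8.84, 8.71 and 8.96 in GMP replicates A to D and 8.30, 8.37, 8.38 and 8.44 in L-GMP replicates A to D, groups 0.27 apart. It fell by 0.44 (SE 0.10, 1.35-fold, limma adjusted p = 0.0148). It missed the threshold after centring, and with both GMP array D and L-GMP array B left out (adjusted p at most 0.0762). Slc39a9, a zinc transporter of the Golgi, missed the threshold with a change of -0.39 (limma adjusted p = 0.053) although its groups did not overlap, and passed without the dimmest 25% or 50% of genes, in the mean of its probe sets and without L-GMP replicate D (0.0382 at the lowest). Its probe sets had changes of -0.56, -0.39 and 0.00. Slc39a6, the ZIP6 gene, had a change of -0.11 (95% interval -0.31 to 0.09), and the sign turned after centring. Slc39a14, which encodes ZIP14, the closest relative of ZIP8, had a change of 0.05 in the chosen probe set and of -0.48 (limma adjusted p = 0.0273 over all probe sets) in another, chosen after its values were seen. The other SLC39 genes had changes of -0.28 to 0.30.

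Of 18 measured genes of zinc and copper buffering, chaperones and pumps, 4 rose (22.2%, against 4.78% of all genes) and 0 fell by limma. Their median change was 0.05. At an unadjusted limma p under 0.05 there were 7 of these genes. The 3 not past the threshold, Cox11, Cox19 and Sco2, serve copper delivery to cytochrome oxidase and had changes of -0.24, -0.27 and -0.25. The metallothioneins Mt1 and Mt2, small proteins that bind zinc and copper, rose by 1.27 (SE 0.14, limma adjusted p = 0.000187) and 1.42 (SE 0.39, limma adjusted p = 0.0392). Tmem163, a zinc transporter of vesicles, rose by 0.96, and Mt3, picked with its values known, rose by 0.50. The Mt2 call was lost when L-GMP replicate C or D or any GMP array was left out (limma adjusted p 0.0513 to 0.111) and under a trended robust prior, and the Mt3 call without GMP array A, B or C or L-GMP array A or B (0.0678 to 0.126). Mtf1, the factor that binds the metal response element, had a change of -0.16 (limma adjusted p = 0.626) and was chosen after its values were seen.

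Of the copper genes of the SLC31 family, Slc31a2 rose and Slc31a1 did not pass the test. Slc31a2 encodes CTR2, a copper transporter of endosomes and lysosomes. It read 8.03, 7.81, 7.62 and 7.54 in GMP replicates A to D and 8.71, 8.45, 8.61 and 8.64 in L-GMP replicates A to D, every L-GMP array at least 0.41 above the highest GMP array. Slc31a2 rose by 0.85 (SE 0.13, 1.81-fold, limma adjusted p = 0.00143), from 7.75 ± 0.22 to 8.60 ± 0.11 (SD, n = 4). The second probe set of Slc31a2 rose by 0.80 (SE 0.12, limma adjusted p = 0.00137 over all probe sets), and the change was 0.78 to 0.99 over the 17 alternatives, all past the threshold. Slc31a1 encodes CTR1, the copper importer of the plasma membrane. It read 7.88, 7.96, 7.74 and 8.15 in GMP replicates A to D and 7.69, 7.53, 7.62 and 7.61 in L-GMP replicates A to D. Its groups did not overlap, but its change of -0.32 missed the threshold (SE 0.11, limma adjusted p = 0.0838). The change of Slc31a2 exceeded that of Slc31a1 by 1.17 on the log2 scale, for a pair chosen with its values known. An exact permutation test over the 8 arrays gave p = 0.029 (2-sided, unadjusted, the smallest possible). Since the groups were already apart in opposite directions in the 2 genes, that p was fixed in advance and adds no support. Such a difference within arrays shows unequal change of the genes and not their relative abundance.

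**Figure D3:**
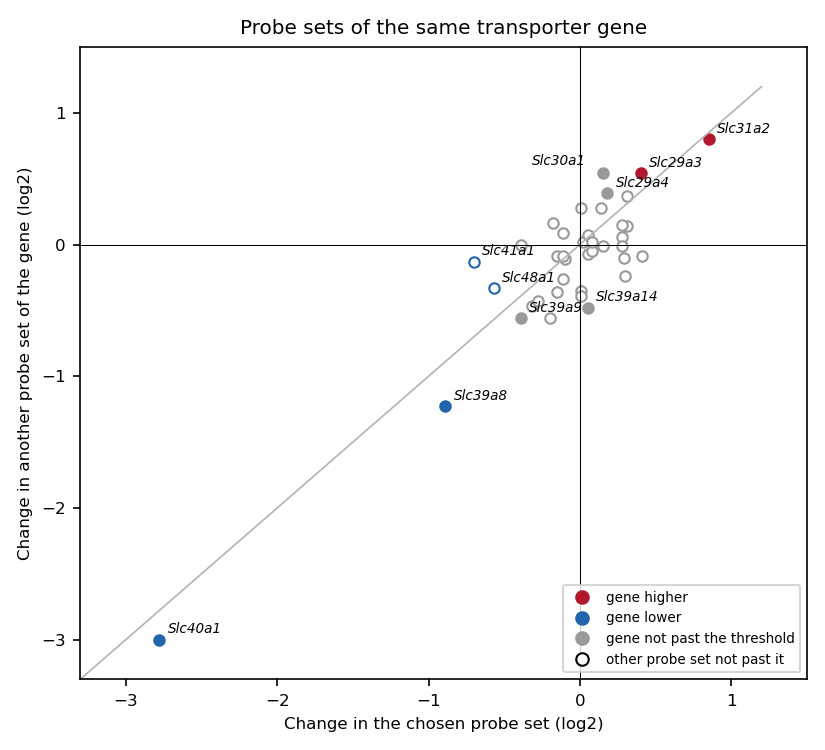
Change in each further probe set of a gene (vertical axis, log2, L-GMP minus GMP) against the change in the probe set chosen for it (horizontal axis), for the 28 genes with several probe sets, with the line of equal change and open points for further probe sets not past the threshold. The further probe sets of Slc40a1 (-3.00), Slc39a8 (-1.23), Slc31a2 (0.80) and Slc29a3 (0.54) lie on the same side of 0 as the chosen ones and past the threshold.

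Of the 3 SLC41 genes, Slc41a1 fell (33.3% of the family, against 7.27% of all genes) and the others did not pass the test. Slc41a1 encodes a sodium-dependent magnesium exporter of the plasma membrane. GMP replicates A to D read 6.03, 6.07, 6.04 and 5.97, and L-GMP replicates A to D read 5.46, 5.52, 4.84 and 5.49. The GMP arrays were nearly alike, and L-GMP replicate C lay well under the others. Slc41a1 fell by 0.70 (SE 0.15, 1.63-fold, limma adjusted p = 0.0124). Its other probe set had a change of -0.13 (limma adjusted p = 0.69), and the mean of the 2 had a change of -0.42 (adjusted p = 0.058). Slc41a2 and Slc41a3 had changes of -0.08 and 0.08, neither past the threshold. Of 18 further genes of magnesium and manganese transport, 4 fell (22.2%, against 7.27% of all genes) and 1 rose (5.56%, against 4.78%), with a median change of -0.04. Nipal3 fell by 1.03 (SE 0.16), Cnnm2 by 0.92 (SE 0.14) and, chosen after their values were seen, Cnnm4 by 0.72 and Magt1 by 0.51. Atp13a2, a polyamine pump of lysosomes once linked to manganese, rose by 1.12 (SE 0.19, limma adjusted p = 0.0036). These 5 calls held under all 17 alternatives. Atp13a1, of the same family as Atp13a2, had a change of 0.39 at an unadjusted p under 0.05 and missed the threshold (limma adjusted p = 0.0894).

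Of the nucleoside carriers, 1 of 4 SLC29 genes rose and none fell. Slc29a3 encodes ENT3, the nucleoside transporter of the lysosome, whose loss in people causes histiocytosis. It read 7.90, 7.72, 7.60 and 7.58 in GMP replicates A to D and 8.0, 8.16, 8.04 and 8.20 in L-GMP replicates A to D. The groups were only 0.10 apart. Slc29a3 rose by 0.40 (SE 0.11, 1.32-fold, limma adjusted p = 0.0345), a call that remained without GMP replicate A and was lost without any other single array (limma adjusted p 0.0533 to 0.0979). The second Slc29a3 probe set rose by 0.54 (SE 0.15, limma adjusted p = 0.0349 over all probe sets). Slc29a1, the ENT1 carrier that takes up cytarabine and other nucleoside drugs, had a change of -0.16 (95% interval -0.46 to 0.14). Slc29a2 and Slc29a4 had changes of 0.14 and 0.18. A dim second probe set of Slc29a4, picked with its values known, rose by 0.39, from a GMP mean of 3.08 to an L-GMP mean of 3.47, both under the lower quartile. Slc28a3, a concentrative nucleoside carrier, lay under the lower quartile in both groups, with a change of 0.28 (limma adjusted p = 0.162). After centring it passed (0.0331).

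Among 30 measured genes of nucleoside salvage and breakdown, 3 rose and 3 fell, with a median change of -0.02. Both shares were above those of all genes, of which 4.78% rose and 7.27% fell. Xdh, xanthine dehydrogenase, rose by 1.13 (SE 0.12, limma adjusted p = 0.000176). Nt5c3, a pyrimidine nucleotidase, fell by 0.86 and Entpd1, the ectonucleotidase CD39, by 0.83. When its probe sets were averaged, Entpd1 fell by 0.41 (limma adjusted p = 0.0125). Aprt rose by 0.55, Nt5c rose by 0.38 and Pnp fell by 0.53, all chosen after their values were seen. The Nt5c call was lost without GMP array D or L-GMP array A or C (limma adjusted p 0.0528 to 0.0697), and the Pnp call when GMP array B, C or D or L-GMP array C or D was left out (0.0575 to 0.0702) and after centring.

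In the families that hold the vitamin carriers there were 0 calls in limma, among 3 SLC19, 4 SLC23 and 3 SLC46 genes. Over all genes 12.1% were called in either direction. At an unadjusted p under 0.05 there was 1 gene, Slc19a1. Slc19a1 encodes the reduced folate carrier, which also takes up methotrexate. It read 8.28, 8.15, 8.09 and 8.26 in GMP replicates A to D and 8.55, 8.39, 8.21 and 8.84 in L-GMP replicates A to D, so that L-GMP replicate C lay within the GMP range. Its change was 0.31 (95% interval 0.00 to 0.61, limma adjusted p = 0.185), and after centring it passed (0.0498). Its other probe sets had changes of 0.37 and 0.14. Slc46a1, the proton-coupled folate carrier, had a change of 0.15 (95% interval -0.10 to 0.41), and the thiamine carrier Slc19a2 of -0.15 (95% interval -0.42 to 0.11). The ascorbate carriers Slc23a1 and Slc23a2 had changes of 0.41 (95% interval -0.04 to 0.86) and 0.28 (95% interval -0.06 to 0.61). The Slc23a1 interval leaves room for a change of up to 0.86, so a missed threshold does not show that the levels were equal. The other probe set of Slc23a1 had a change of -0.09 (limma adjusted p = 0.807 over all probe sets), with overlapping groups.

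Genes that keep and use these vitamins changed in few cases. Of 19 measured genes of folate retention and use, 3 fell (15.8%, against 7.27% of all genes) and 0 rose. Aldh1l1, which oxidises formyl folate, fell by 1.59 (SE 0.18, limma adjusted p = 0.000241), and when its probe sets were averaged it fell by 0.78 (0.00151). Mthfd2l fell by 0.54 and Mthfd1 by 0.42. Mthfd2l lost its call without GMP array B, C or D or L-GMP array A, B or C (limma adjusted p 0.0748 to 0.118) and under both other scalings, and Mthfd1 without GMP array B, C or D or L-GMP array C or D (0.0507 to 0.0613) and after centring. Of 13 genes of cobalamin uptake and use, 1 rose and 1 fell (7.69% each, against 4.78% and 7.27% of all genes). Lmbrd1, which brings cobalamin out of the lysosome, rose by 0.47, and Cd320, the receptor for the transcobalamin complex, fell by 0.55. Cd320 lost its call without GMP array B, C or D or L-GMP array C or D (limma adjusted p 0.0812 to 0.0915) and after centring. In the mean of its probe sets Lmbrd1 had a change of 0.06 (limma adjusted p = 0.767). Of 18 genes of thiamine and ascorbate use, 1 rose (5.56%, against 4.78% of all genes) and 0 fell. It was Slc2a1, the glucose transporter GLUT1 that also admits oxidised ascorbate, which rose by 0.86 (SE 0.15, limma adjusted p = 0.00447). Over the 155 genes of all these lists, 14 rose (9.03%) and 15 fell (9.68%), against 4.78% and 7.27% of all genes, with a median change of -0.02.

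**Figure D4:**
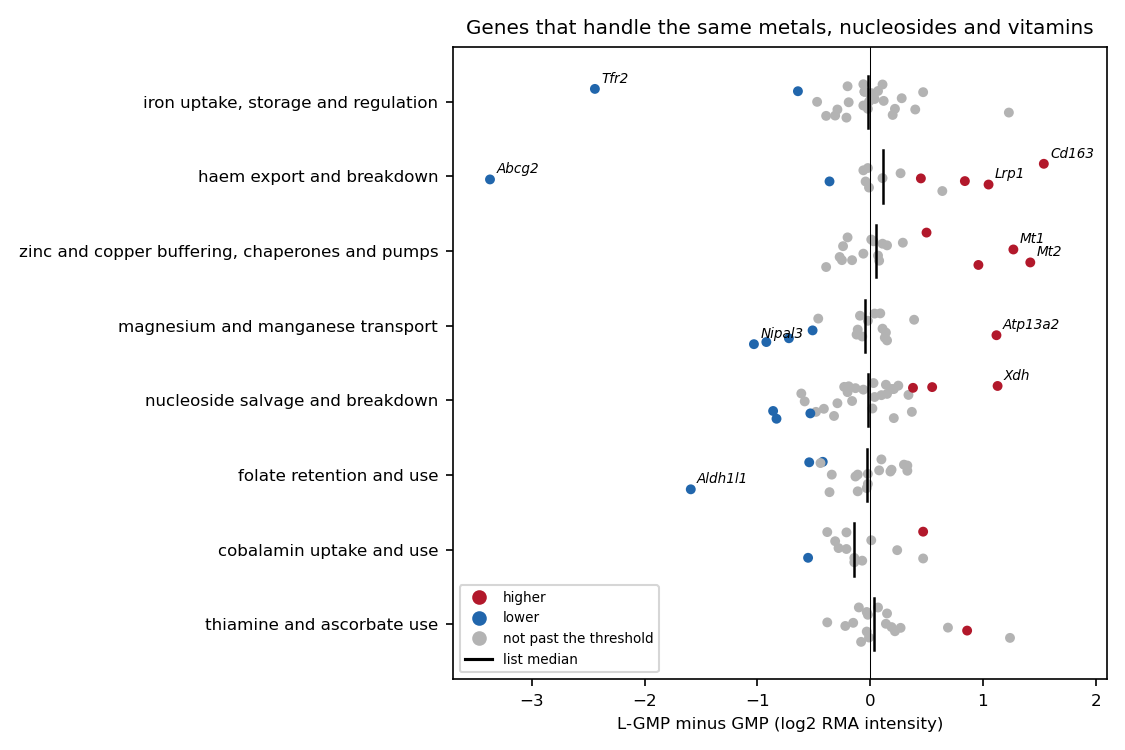
Change of each measured gene of the 8 lists of metal, nucleoside and vitamin handling (horizontal axis, log2, L-GMP minus GMP), a row for each list with points spread vertically only to separate them, and the black line the list median. Abcg2 (-3.37) and Tfr2 (-2.44) lie farthest to the left and Cd163 (1.54) and Mt2 (1.42) among those past the threshold on the right, and every list median lies between -0.14 and 0.11.

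Arrays differed in how they entered the calls. Among the 7 genes that fell, L-GMP replicate C held the lowest value of its group in 4, and GMP replicate D held the highest of its group in 5. Leaving out any of GMP replicates B, C and D or L-GMP replicate C gave 5 genes of the 48 that fell and 1 that rose. Slc40a1, Slc30a4, Slc41a1, Slc48a1, Slc39a11 and Slc31a2 were past the threshold without any 1 array. With both GMP array D and L-GMP array B left out, the calls of Slc29a3, Slc30a6, Slc39a11, Car1, Elane, Hmox2, Mt3, Mthfd1, Mthfd2l, Nfs1, Nt5c and Pnp were lost. Slc40a1, Slc30a4 and Slc31a2 passed in every alternative that tested them.

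**Figure D5:**
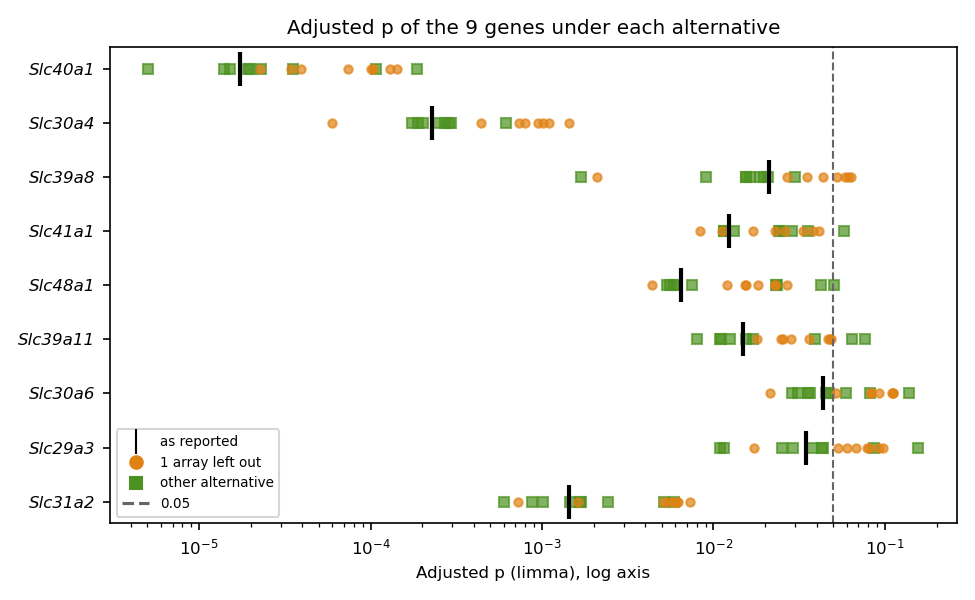
Adjusted p from limma (horizontal log axis) for each of the 9 genes as reported (black bar), with each array left out in turn (circles) and under the other alternatives (squares), against the threshold of 0.05 (dashed). All points of Slc40a1, Slc30a4 and Slc31a2 lie left of the line, and most leave-out points of Slc29a3 and Slc30a6 lie right of it.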

How the data were processed

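RNA of 8 sorted samples was measured on Affymetrix arrays. Per the labels' protocols it was extracted with Trizol and column cleaned, and labelled with a whole transcript sense assay, while the probe sets are those of a 3′ design, so the target strand and position are unknown. The deposited values are intensities made with RMA per the submitters' processing notes (version not given in the sources used here), on a linear scale of 3.54 to 29746.73, with no detection calls or scan dates used, so precision rests on 4 arrays in each group.

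Values were put on the log2 scale. Of 45101 probe sets, 64 controls were left out, and 34945 of the others had 1 gene symbol, 932 several and 9160 none. The RefSeq table (GRCm38.p6) matched 34741 single-symbol probe sets by Entrez identifier. Each gene was read at its probe set with the highest mean. limma (3.58.1, R 4.3.3; lmFit, eBayes, group alone, 2-sided, Benjamini-Hochberg over 18193 genes at 0.05) gave changes, standard errors and intervals. Tested on simulated data over 18193 genes for L-GMP against GMP, it recovered 81% of 100 genes changed by 1 and 98% of 100 changed by 2 on the log2 scale.

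The genes, lists, alternatives and naming rule were chosen with earlier results of these data known. Named were all members past the threshold, the member of each family with the highest mean, up to 6 others whose groups did not overlap, any with probe sets called in opposite directions (0 were), up to 3 called genes of each handling list (or the largest change where none was called), and in cell type lists the highest mean and 2 largest called changes. Alternatives were 2 scalings, 2 filters on dim genes, the mean of probe sets, every probe set tested, a trended robust prior, the replicate letter as a block, each array left out, and both GMP array D and L-GMP array B left out.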

Additional observations from a re-analysis of the deposited data

Results flagged for a closer look

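In 96 groups of 4 arrays (48 genes in each of 2 groups), 3 held an array set far apart from the other 3 by Dixon's criterion, where chance alone flags about 1 group in 20. Slc41a1 in L-GMP replicate C was at 4.84, against 5.46 to 5.52 on the other L-GMP arrays. Slc30a2 in GMP replicate B was at 4.55, against 3.75 to 3.88. Slc39a12, a zinc transporter of brain, was at 4.24 in GMP replicate A, against 3.79 on the other GMP arrays.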

How the results depend on the processing

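Of 317 values of the 19 named carrier genes under the alternatives, 276 kept their direction and their side of the threshold, 27 lost the call, 7 gained it and 7 changed sign. The sign changes were those of Slc11a2, at -0.11 in the mean of its probe sets, -0.10 with 1 array of each group (L-GMP replicate B, GMP replicate D) left out and -0.05 to 0.09 with each array left out, and of Slc39a6, at 0.03 after centring. Centring on the array medians gave 4 carrier genes that rose and 5 that fell, and 23 handling genes that rose and 9 that fell, with 70.1% of 3084 called genes higher in L-GMPs in place of 39.7% of 2193, and quantile normalization gave 49.5% of 2531. With each array left out, 1411 to 2388 genes were called in all, 1 to 3 carriers rose and 5 to 7 fell, and 10 to 15 handling genes rose and 9 to 18 fell. The lowest total came without GMP replicate B, and 9 falls among handling genes without GMP array B or D or L-GMP array C. With both GMP array D and L-GMP array B left out, 1 carrier rose and 5 fell. No pairing by replicate letter was seen: correlations of same-letter deviations were -0.067 to 0.112, and 2 of 8 arrays correlated best with their own letter. Weak correlations of this kind cannot exclude that a letter links 2 arrays. With the replicate block 1760 genes were called, 1 carrier rose and 6 fell, and Slc29a3 and Slc30a6 lost their calls, as did Cd320, Hmox1, Hmox2, Mpo, Mt3, Mthfd1, Mthfd2l, Nt5c and Pnp among the other named genes. The causes were not tested. Of the 48 genes, 5 lay under the lower quartile of every array in both groups, where changes cannot be sized.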
